A study of Mus musculus with 12 samples.

Results

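The genes described here are 9 members of the tumour necrosis factor (TNF) superfamily that activated CD4 T cells use at their surface, the receptors Tnfrsf4, Tnfrsf9, Tnfrsf18, Tnfrsf1b and Cd27 and the ligands Cd40lg, Tnfsf8, Tnfsf11 and Tnfsf14. They were chosen by name, with earlier results of these data known, and found by gene symbol. Each matched 1 gene of the 49585 genes in the count files. The study deleted Rnmt, the gene of the methyltransferase that adds the N-7 methyl group to the guanosine cap of mRNA, in mouse T cells and compared Rnmt cKO cells with control cells. Naïve CD4 T cells were isolated from lymph nodes of female mice with a kit, activated for 20 h on plates coated with 5 µg/ml anti-CD3 and 1 µg/ml anti-CD28 antibodies, and treated with 0.1 mg/ml cycloheximide for 1 min, which stalls ribosomes, before lysis. Control mice were Rnmt fl/fl CD4cre - and Rnmt cKO mice were Rnmt fl/fl CD4cre +, so both carried the floxed Rnmt alleles and only the second expressed the Cre recombinase. The Cre is driven by Cd4 regulatory sequences and acts from the double positive stage of thymic development, so the cells had matured and been activated without intact Rnmt, and cells of both the CD4 and CD8 lineages of these mice carry the deletion. The ages of the mice are not given in the sources used here.

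Libraries were made of total cytoplasmic RNA and of ribosome-protected fragments (RPFs), the pieces of mRNA that ribosomes shield from nuclease, with 3 control and 3 Rnmt cKO libraries of each kind and 12 in all. Same-numbered total RNA and RPF libraries of a genotype are taken here as coming from the same culture, which the labels do not state. Reads counted on genes ranged from 15079703 to 22629563 in total RNA and from 4123271 to 10661356 in RPF, and Rnmt cKO replicate 3 had the lowest RPF depth. Levels are given as CPM, the read count relative to library size, after scaling of the libraries of a kind by the trimmed mean of M values (TMM), which makes each value a share of its library and not an amount per cell. The study reported less mRNA per cell in activated Rnmt cKO cells than in controls. It warned that RNA sequencing therefore understates falls and overstates rises of single genes. Rises and falls below are relative, and a small rise need not be a rise per cell. In such bulk samples fewer cells of a type and less RNA per cell cannot be told apart. Differences were tested with the quasi-likelihood F test of edgeR over all genes past a CPM filter, with p-values adjusted by Benjamini-Hochberg and called under 0.05. Translation efficiency (TE) is the RPF level relative to the total RNA level, and a TE change is the genotype effect in RPF minus that in total RNA, tested as an interaction over the 12 libraries. Nothing in the labels says that the 3 replicates of a group came from separate animals, so the p-values measure the spread between these samples.

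Ligands of this family are mostly trimeric type II membrane proteins that cluster their receptors on a neighbouring cell. Most of the receptors without a death domain recruit TRAF adaptor proteins and activate NF-κB and MAP kinases, and in T cells they act as co-stimulators that prolong survival and expansion after the T cell receptor has been engaged. CD40 ligand works in the other direction, since it lets the helper T cell license B cells and dendritic cells.

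The targeted gene followed the labels. Rnmt was at 95.3, 93.9 and 94.1 CPM in total RNA of the control replicates 1, 2 and 3 and at 29.3, 32.3 and 30.4 CPM in the Rnmt cKO replicates. The RPF libraries held 104, 87.7 and 98.7 CPM against 10.5, 10.3 and 9.57 CPM. Every Rnmt cKO library was below every control library, and the log2 fold change was -1.62 ± 0.06 (SE) in total RNA and -3.24 ± 0.10 in RPF (edgeR, adjusted p = 5.84e-06 and 4.81e-06).

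All 9 members were above 1 CPM in each of the 12 libraries, so none entered the test through a single group. In total RNA 5 of 9 members rose in Rnmt cKO cells, where 26.3% of the 11519 genes tested rose, and 2 fell, where 28.0% fell. In RPF the count was again 5 up, against 14.1% of 11428 genes, and 2 down, against 15.7%. Tnfsf11, Tnfsf8, Tnfrsf4, Tnfrsf18 and Tnfrsf9 rose in both kinds of library, Cd27 and Cd40lg fell in both, and Tnfrsf1b and Tnfsf14 passed the threshold in neither. The same 5 lay above all controls in total RNA, which held for 30.0% of genes, and the same 2 lay below all controls, which held for 32.3%. In RPF 6 members, these 5 and Tnfsf14, lay above (22.2% of genes) and 2 lay below (24.3% of genes). The median log2 fold change of the 9 members was 0.74 in total RNA and 0.60 in RPF, beside -0.0037 and 0.0080 over all genes tested. In TE no member rose, beside 3.24% of 10668 genes, and 1 member, Cd40lg, fell, beside 6.57% (edgeR; DESeq2 gave the same counts). At an unadjusted p under 0.05 none was higher in TE, beside 11.9% of genes, and 2 were lower, Cd40lg and Tnfrsf4, beside 12.7%. With 3 libraries against 3 the smallest p of an exact permutation test for a single gene is 0.1, so calls rest on the model fitted across genes.

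**Figure D1:**
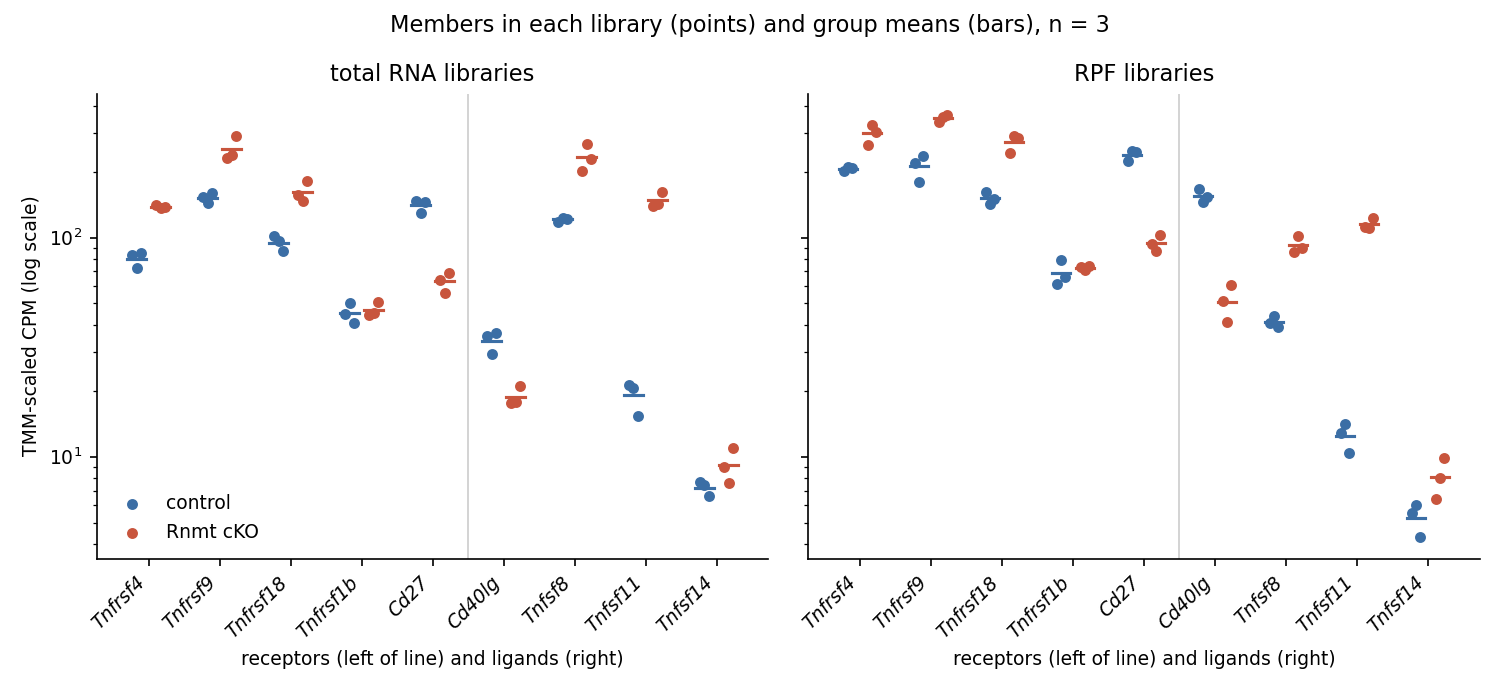
TMM-scaled CPM on a log axis of each member in the total RNA libraries (left) and the RPF libraries (right); points are libraries (n = 3 per group) and bars are group means. Tnfsf11 shows the widest gap, from 15.3 to 21.1 CPM in control to 140 to 162 CPM in Rnmt cKO total RNA, while the groups of Tnfrsf1b overlap.

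Levels can be compared between genes only per length, and in control total RNA the order per kb of exon ran from Cd27 at 89.9 ± 6.23 CPM per kb (SD, n = 3) to Tnfsf14 at 3.91 ± 0.286. Between them lay Tnfrsf4 (77.8 ± 6.66), Tnfrsf18 (75.3 ± 6.06) and Tnfrsf9 (61.1 ± 3.14), so the 4 receptors of the co-stimulatory kind headed the order. Tnfsf8 (31.8 ± 0.839) was the ligand with the highest level, ahead of Cd40lg (27.1 ± 3.14), and Tnfrsf1b (11.9 ± 1.26) and Tnfsf11 (8.51 ± 1.44) came next. Of the neighbours in this order, only Tnfrsf4 and Tnfrsf18 had ranges over the 3 libraries that overlapped, from 70.1 to 82.2 and from 68.7 to 80.6 CPM per kb.

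The order changed in Rnmt cKO cells. Tnfrsf4 (134 ± 1.80 CPM per kb), Tnfrsf18 (128 ± 13.8) and Tnfrsf9 (102 ± 13.04) came first. The gap between Tnfrsf4 and Tnfrsf18 was smaller than the SD of Tnfrsf18 but larger than that of Tnfrsf4. Tnfsf11 moved from rank 8 to rank 4 at 66.3 ± 5.36 CPM per kb and was within 1 SD of Tnfsf8 (61.0 ± 8.62), while Cd27 moved from rank 1 to rank 6 at 40.5 ± 4.24. Cd40lg (15.0 ± 1.53), Tnfrsf1b (12.2 ± 0.917) and Tnfsf14 (4.95 ± 0.908) closed the order.

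**Figure D2:**
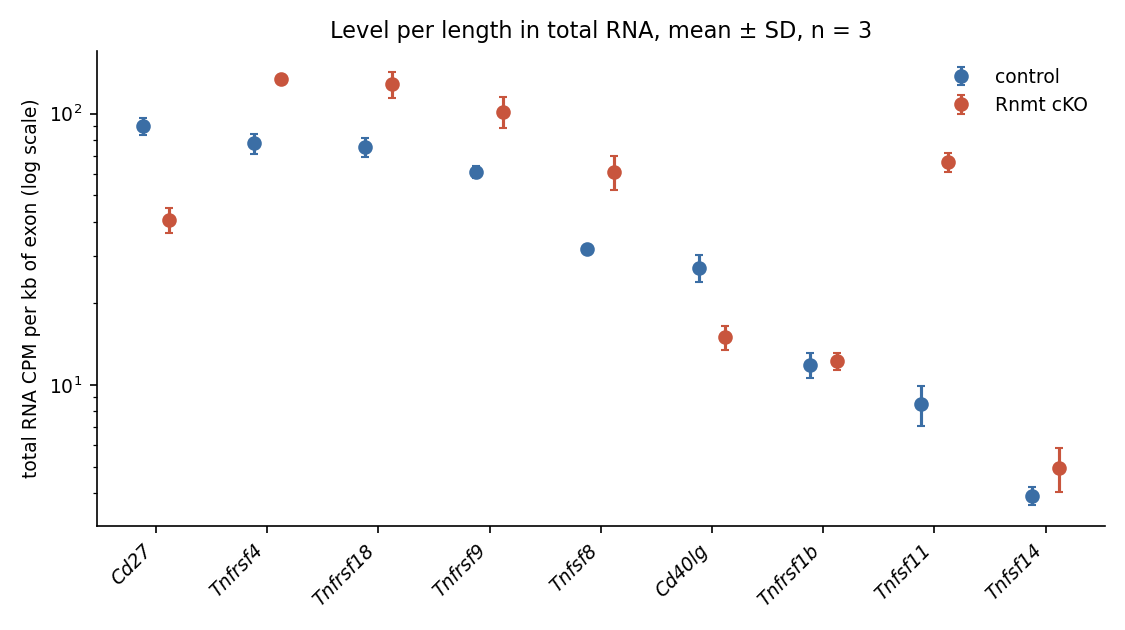
Mean level of each member in total RNA as CPM per kb of exon on a log axis, in control and Rnmt cKO libraries, with SD over 3 libraries as bars and genes ordered by their control level. Tnfsf11 rose from 8.51 to 66.3 CPM per kb and Cd27 fell from 89.9 to 40.5 CPM per kb.

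Among the receptors, Tnfrsf4 encodes OX40, a co-stimulator induced by activation that sustains CD4 T cell expansion. The gene lies at chr4:156013843-156016612 on the + strand (GRCm38), and the next gene downstream is Tnfrsf18, which starts 9551 bases further on. In total RNA it was at 83.5, 72.2 and 84.6 CPM in control replicates 1, 2 and 3 and at 140, 137 and 138 CPM in the Rnmt cKO replicates. The RPF libraries held 201, 210 and 208 CPM in control and 264, 328 and 304 CPM in Rnmt cKO. All Rnmt cKO libraries were higher than all controls in both kinds. The log2 fold change was 0.79 ± 0.07 (SE) in total RNA and 0.53 ± 0.08 in RPF (edgeR, adjusted p = 7.52e-05 and 0.00235), and the TE difference of -0.25 did not pass the threshold (edgeR, adjusted p = 0.199).

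Tnfrsf18 encodes GITR, a co-stimulator that is also abundant on regulatory T cells, and lies at chr4:156026164-156028895 on the + strand. Its total RNA level was 102, 96.5 and 86.6 CPM in control and 156, 147 and 181 CPM in Rnmt cKO. In RPF it was 161, 142 and 149 CPM in control and 243, 292 and 285 CPM in Rnmt cKO. The groups did not overlap, and the log2 fold change was 0.77 ± 0.09 in total RNA and 0.85 ± 0.09 in RPF (edgeR, adjusted p = 3.05e-04 and 3.60e-04). Beside its neighbour Tnfrsf4 the value was close in total RNA (0.77 and 0.79) and higher in RPF (0.85 and 0.53), a difference between genes that was not tested. The 250 bases before the RefSeq start of both neighbours (RefSeq on GRCm38.p6, 5′ to 3′, chr4:156013445-156013694 and chr4:156026072-156026321, both + strand) are shown because the adjacent genes both rose, with matches to the NFAT core GGAAA on either strand in capitals.

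Tnfrsf4: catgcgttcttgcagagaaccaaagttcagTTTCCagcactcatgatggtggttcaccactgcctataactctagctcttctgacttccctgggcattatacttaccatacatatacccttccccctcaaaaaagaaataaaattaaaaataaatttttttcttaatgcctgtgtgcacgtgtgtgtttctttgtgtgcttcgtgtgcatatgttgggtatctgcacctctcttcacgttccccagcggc
Tnfrsf18: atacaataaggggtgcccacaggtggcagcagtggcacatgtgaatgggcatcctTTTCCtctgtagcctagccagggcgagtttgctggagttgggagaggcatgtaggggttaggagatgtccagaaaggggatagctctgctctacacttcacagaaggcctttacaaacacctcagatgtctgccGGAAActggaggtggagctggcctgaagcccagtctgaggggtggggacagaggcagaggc

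Tnfrsf4 had 1 such match and Tnfrsf18 had 2, and 55.6% of the 32851 RefSeq windows of this length hold at least 1. Neither window held the NF-κB consensus (found in 7.25% of windows) or the AP-1 site TGANTCA (6.75% of windows). The RefSeq starts lie 148 and 158 bases from the starts in the GENCODE annotation, so either window may miss the start used in these cells.

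Tnfrsf9 encodes 4-1BB (CD137), a receptor that appears after activation and promotes survival, and lies at chr4:150914562-150946102 on the + strand, overlapping Camta1 on the other strand. Total RNA held 152, 144 and 159 CPM in control and 231, 237 and 290 CPM in Rnmt cKO. RPF held 218, 179 and 237 CPM in control and 336, 354 and 364 CPM in Rnmt cKO. The groups did not overlap in either kind of library. The change was nearly equal in both, at 0.74 ± 0.09 and 0.73 ± 0.10 on the log2 scale (edgeR, adjusted p = 4.05e-04 and 0.00130), and the TE difference was -0.0058 ± 0.15 (edgeR, adjusted p = 0.993).

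Windows were found for all members but Cd40lg, which was not searched. RefSeq gives Tnfrsf9 a pair of starts. The window before the downstream one (chr4:150927749-150927998, + strand) was the only one of these windows with a match to the NF-κB consensus. It is shown with all motif matches in capitals, which are from 5′ to 3′ an NFAT core on each strand, the NF-κB consensus with a further NFAT core inside it, and the AP-1 site.

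Tnfrsf9: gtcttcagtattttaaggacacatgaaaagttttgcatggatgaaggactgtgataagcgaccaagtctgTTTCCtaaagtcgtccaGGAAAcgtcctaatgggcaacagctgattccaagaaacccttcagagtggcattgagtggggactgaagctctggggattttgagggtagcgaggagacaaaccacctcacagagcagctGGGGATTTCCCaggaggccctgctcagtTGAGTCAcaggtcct

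The NF-κB consensus matched at 2 overlapping positions, 43 and 42 bases before the start, and the AP-1 site lay 15 bases before it. This start lies 13437 bases downstream of the first base of the GENCODE gene. The window before the upstream Tnfrsf9 start held 2 NFAT cores and neither of the other motifs. An AP-1 site was also in the window of Tnfsf14, 160 bases before its start and with 3 NFAT cores, and Tnfsf14 passed the test in neither kind of library. Cd27, Tnfsf8 and Tnfsf11 had 1 NFAT core each and Tnfrsf1b had none.

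Tnfrsf1b encodes the second TNF receptor, which has no death domain and on T cells binds TNF and lymphotoxin alpha. The gene (chr4:145213463-145246870, - strand) neighbours Tnfrsf8 at a distance of 20266 bases. It was at 44.9, 50.3 and 40.7 CPM in control total RNA and at 44.1, 45.4 and 50.7 CPM in Rnmt cKO total RNA. The RPF values of 61.3, 79.2 and 66.3 CPM and of 73.7, 70.7 and 74.1 CPM also overlapped. The log2 fold change was 0.05 ± 0.10 in total RNA and 0.08 ± 0.10 in RPF (edgeR, adjusted p = 0.697 and 0.566), and its sign turned when single replicates were left out.

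Cd27, a co-stimulator that unlike the 3 inducible receptors above is already present on naïve T cells, was the only receptor of the 5 that fell. It lies at chr6:125232622-125237010 on the - strand, overlapping Vamp1 on the other strand and Mir8113 on its own. Control total RNA held 146, 129 and 145 CPM and Rnmt cKO total RNA 64.2, 56.0 and 69.1 CPM. RPF held 223, 248.5 and 246 CPM in control and 93.2, 86.6 and 103 CPM in Rnmt cKO. Every Rnmt cKO library was below every control library, and the fitted fall between the groups was 2.22-fold in total RNA and 2.54-fold in RPF. The log2 fold change was -1.15 ± 0.09 and -1.35 ± 0.08 (edgeR, adjusted p = 4.23e-05 and 5.31e-05), with a TE difference of -0.20 ± 0.13 (edgeR, adjusted p = 0.380). The window before its RefSeq start (chr6:125237028-125237277, - strand, 17 bases from the GENCODE start) is shown as that of the member with the largest fall in total RNA, with its single match, an NFAT core, in capitals.

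Cd27: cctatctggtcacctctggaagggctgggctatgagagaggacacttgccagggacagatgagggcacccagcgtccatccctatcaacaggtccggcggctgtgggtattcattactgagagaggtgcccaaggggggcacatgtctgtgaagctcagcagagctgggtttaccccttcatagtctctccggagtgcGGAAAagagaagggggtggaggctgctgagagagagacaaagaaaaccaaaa

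**Figure D3:**
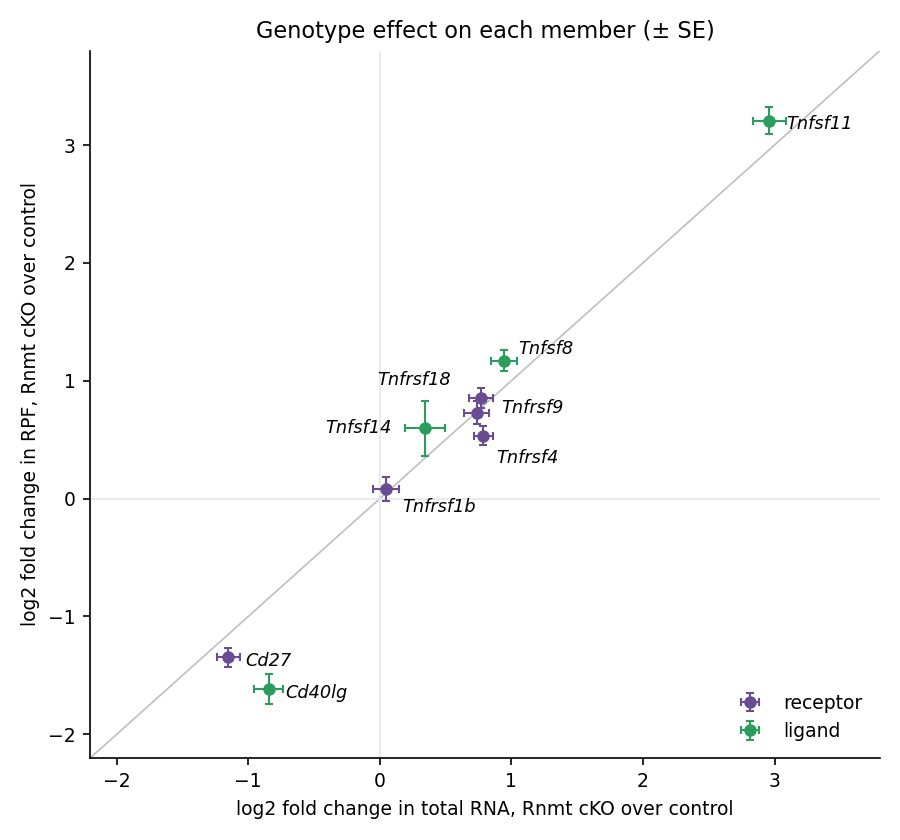
Log2 fold change of Rnmt cKO over control in total RNA (x) and in RPF (y) for the 5 receptors and 4 ligands, with SE bars from edgeR fits to 3 libraries per group; the grey diagonal marks equal changes. Tnfsf11 lies far from the other genes at 2.96 and 3.20, and Cd40lg, at -0.85 and -1.62, lies farthest below the diagonal.

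Among the ligands, Tnfsf11 (RANKL), known for driving osteoclast formation and lymph node development and made by activated T cells, changed most. It lies at chr14:78277445-78308043 on the - strand. In control total RNA it was at 21.1, 20.7 and 15.3 CPM, and in Rnmt cKO total RNA at 140, 143 and 162 CPM. In RPF it was at 12.8, 14.1 and 10.4 CPM in control and at 112, 110 and 122 CPM in Rnmt cKO. The lowest Rnmt cKO library was thus several times the highest control library in both kinds. The rise was 7.78-fold in total RNA and 9.22-fold in RPF, with log2 fold changes of 2.96 ± 0.13 and 3.20 ± 0.12 (edgeR, adjusted p = 6.05e-06 and 7.57e-06). Counts of this gene ran from 85 to 1132 per RPF library. Its upstream window (chr14:78308044-78308293, - strand), where RefSeq and GENCODE give the same start, is shown as that of the member with the largest rise, with its single NFAT core match in capitals.

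Tnfsf11: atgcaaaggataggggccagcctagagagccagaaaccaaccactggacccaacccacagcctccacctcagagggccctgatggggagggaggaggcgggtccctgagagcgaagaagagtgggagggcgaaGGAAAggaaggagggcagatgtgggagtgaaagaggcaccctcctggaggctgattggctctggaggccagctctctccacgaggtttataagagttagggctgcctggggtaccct

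Tnfsf8 (CD30 ligand), expressed by activated T cells and bound by the receptor of Tnfrsf8, lies at chr4:63831308-63861347 on the - strand. Total RNA held 117, 123 and 122 CPM in control and 201, 267 and 229 CPM in Rnmt cKO. RPF held 40.9, 43.9 and 39.1 CPM in control and 86.3, 102 and 89.8 CPM in Rnmt cKO. The groups did not overlap, and the log2 fold change was 0.94 ± 0.10 in total RNA and 1.17 ± 0.09 in RPF (edgeR, adjusted p = 1.50e-04 and 1.03e-04).

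Tnfsf14 (LIGHT), which binds the receptor of Tnfrsf14 and the lymphotoxin beta receptor, was the member with the fewest reads, 35 to 82 per RPF library. The gene lies at chr17:57189492-57194177 on the - strand. Total RNA held 7.62, 7.40 and 6.62 CPM in control and 8.94, 7.57 and 10.9 CPM in Rnmt cKO, and Rnmt cKO replicate 2 lay within the control range. RPF held 5.53, 6.01 and 4.28 CPM in control and 6.42, 7.99 and 9.82 CPM in Rnmt cKO, without overlap. The log2 fold change of 0.35 ± 0.15 in total RNA and 0.60 ± 0.24 in RPF did not pass the threshold (edgeR, adjusted p = 0.0872 and 0.0910). In total RNA it passed without Rnmt cKO replicate 2, at 0.49 (edgeR, adjusted p = 0.0210).

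Cd40lg encodes CD40 ligand, the signal by which helper T cells activate B cells, and lies at chrX:57212143-57224042 on the + strand. Its total RNA level was 35.5, 29.3 and 36.6 CPM in control and 17.5, 17.8 and 21.0 CPM in Rnmt cKO. Its RPF level was 166, 145 and 153 CPM in control and 51.1, 41.3 and 60.6 CPM in Rnmt cKO. Both kinds of library separated the genotypes, and the gap was wider in RPF. Cd40lg fell 1.80-fold in total RNA (log2 fold change -0.85 ± 0.11, edgeR, adjusted p = 5.24e-04) and 3.07-fold in RPF (-1.62 ± 0.13, edgeR, adjusted p = 1.25e-04).

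The log2 ratio of RPF to total RNA CPM of Cd40lg was 2.22, 2.31 and 2.06 in control replicates 1, 2 and 3 and 1.54, 1.22 and 1.53 in the Rnmt cKO replicates. No Rnmt cKO value reached the lowest control value. The TE change was -0.78 ± 0.18 on the log2 scale (edgeR interaction, adjusted p = 0.0170), the only TE call among the 9 members. It missed the threshold when the cultures of control replicate 1 (-0.76, adjusted p = 0.0754), control replicate 2 (-0.72, adjusted p = 0.0624) or Rnmt cKO replicate 1 (-0.84, adjusted p = 0.0542) were left out, all in edgeR. The ratio also lay below all controls for Tnfrsf4, which made 2 members of 9 where 14.9% of 10668 genes did so, and above all controls for Tnfsf8 and Tnfsf11, 2 members where 16.6% of genes did so, by smaller gaps. For the other members the TE change ran from -0.25 for Tnfrsf4 to 0.25 for Tnfsf11 with SE of 0.12 to 0.27, which leaves room for differences of that size. The median TE change over the 9 members was 0.036, beside 0.035 over all genes tested.

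The RPF to total RNA ratio also differed between members within control cells, although this ratio depends on the share of a transcript that is coding and on the library kinds and is given as a description. Cd40lg, at a mean log2 ratio of 2.20 ± 0.124 (SD, n = 3), stood at percentile 97.2 of the 10668 genes, whose median was 0.178. Tnfsf8 stood at the other end, at -1.55 ± 0.079 and percentile 6.43, and Tnfsf11 was at -0.61 ± 0.095. Receptors lay between, from 0.47 for Tnfrsf9 to 1.37 for Tnfrsf4. Coding sequence made up 62.6% of the Cd40lg transcript and 18.9% of the Tnfsf8 transcript. Per kb of coding sequence, control RPF ran from 317.5 ± 18.6 CPM for Cd27 to 7.33 ± 1.24 CPM for Tnfsf14, with Cd40lg (198 ± 13.3) at rank 4 and Tnfsf8 (57.4 ± 3.36) at rank 6. In Rnmt cKO RPF, Tnfrsf9 was first at 455 ± 18.4 and Cd40lg was at 65.2 ± 12.3 CPM per coding kb.

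**Figure D4:**
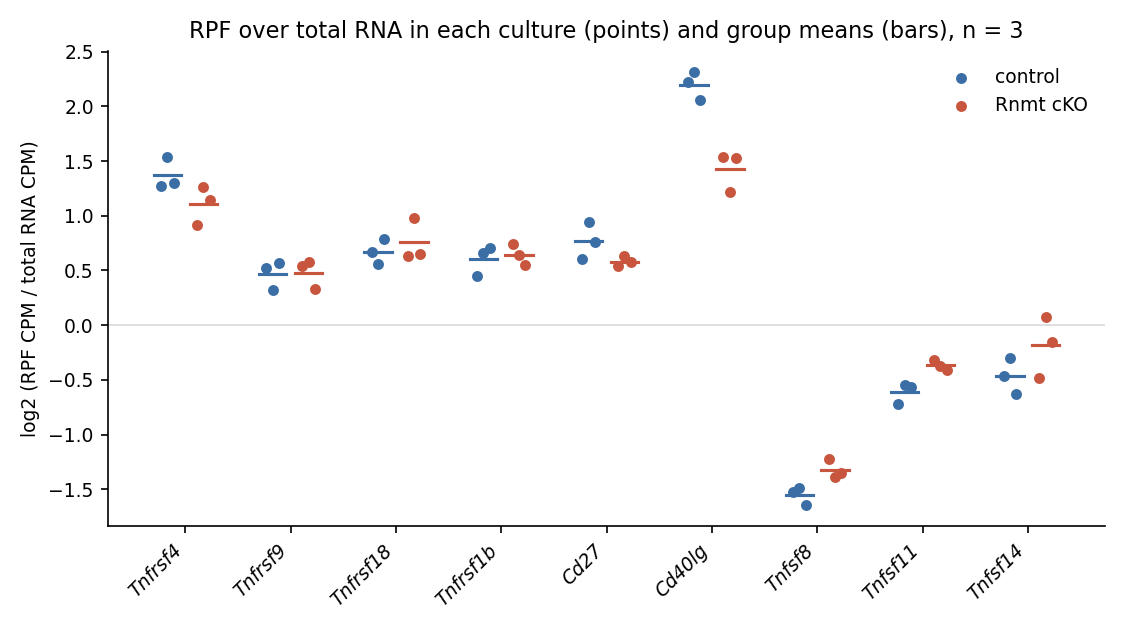
Log2 ratio of RPF CPM to total RNA CPM of each member in each culture (points, n = 3 per genotype) with group means as bars. The Cd40lg points of Rnmt cKO cultures, 1.22 to 1.54, lie below the control points, 2.06 to 2.31.

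The transcripts differed in their 3′ ends as well. The untranslated 3′ end was 2799 bases long in Tnfsf8 and 1131 bases in Tnfsf11, with 10 and 6 copies of ATTTA, the core of the AU-rich element that many cytokine mRNAs carry. Of 10055 genes with a transcript model, 5.76% have 10 or more copies, 15.4% have 6 or more and 65.5% have any. Tnfrsf9, Tnfrsf1b and Cd40lg had 2 copies each and Tnfsf14 had 1. Tnfrsf4, Tnfrsf18 and Cd27 had none, in 3′ ends of 180, 88 and 688 bases. Of the members that rose, Tnfsf11, Tnfsf8 and Tnfrsf9 had copies and Tnfrsf4 and Tnfrsf18 had none. Of those that fell, Cd40lg had copies and Cd27 had none. Tnfsf8 and Tnfsf11, with the most copies, also had the largest rises in both kinds of library. A link between the copies and the changes was not tested.

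Partners of the members within the family were looked up in the same libraries, and not all of them could be read. Cd40, the receptor of CD40 ligand, is described later with the B cell markers. Tnfsf4, the ligand of OX40, rose from 14.8, 20.0 and 14.2 CPM in control total RNA to 86.6, 89.4 and 104 CPM in Rnmt cKO, without overlap. The rise was 5.71-fold, and 8.84-fold in RPF (log2 fold change 2.51 ± 0.14 and 3.14 ± 0.12, edgeR, adjusted p = 1.31e-05 and 7.57e-06). Tnfsf9, the ligand of 4-1BB, rose 3.20-fold in total RNA and 3.13-fold in RPF (edgeR, adjusted p = 9.50e-04 and 0.00336), from control means of 1.58 and 3.23 CPM. Tnfsf18, the ligand of GITR, had 0 counts in all 12 libraries, where the 3 counts that a count of 0 still allows are worth 0.129 to 0.736 CPM, depending on the library. Cd70, the ligand of CD27, missed the CPM filter in total RNA, where it was at 0.09 ± 0.08 CPM in control and 0.63 ± 0.08 CPM in Rnmt cKO, and in RPF it was at 0.0937, 0.752 and 0.245 CPM in control and 2.45, 1.95 and 2.95 CPM in Rnmt cKO. It passed the filter there through the Rnmt cKO libraries alone, so its RPF value (log2 fold change 2.82 ± 0.61) is given as a description.

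Both ligands that can bind Tnfrsf1b rose in total RNA. Tnf went from 59.8, 51.5 and 56.6 CPM to 81.1, 71.3 and 89.5 CPM, without overlap (log2 fold change 0.53 ± 0.10, edgeR, adjusted p = 0.00238), and its RPF value of 0.18 ± 0.10 did not pass (edgeR, adjusted p = 0.185). Lta, lymphotoxin alpha, rose 3.82-fold in total RNA and 3.07-fold in RPF (edgeR, adjusted p = 1.27e-05 and 7.47e-05). Tnfrsf14, the receptor of LIGHT, fell in total RNA (log2 fold change -0.52 ± 0.07, edgeR, adjusted p = 5.23e-04) and was at -0.19 ± 0.10 in RPF (edgeR, adjusted p = 0.188). Tnfrsf8, the receptor of CD30 ligand, was low, at 0.741, 0.423 and 0.968 CPM in control total RNA and 1.83, 3.40 and 1.25 CPM in Rnmt cKO. It passed the filter there through the Rnmt cKO libraries alone, so its total RNA value (log2 fold change 1.59 ± 0.45) is given as a description. In RPF its groups overlapped and its value of 1.46 ± 0.58 did not pass (edgeR, adjusted p = 0.0925). Tnfrsf11a, the receptor of RANKL, had at most 7 counts in any library, and its soluble decoy Tnfrsf11b at most 1.

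Over the remaining family, 15 of 23 other receptors passed the CPM filter in total RNA, of which 3 rose, 4 fell and 7 did not pass the test, while Tnfrsf8 entered through Rnmt cKO alone and is not counted as a rise. The median log2 fold change of the 15 was -0.064. Of 15 in RPF, 3 rose and 2 fell, so both kinds gave shares near those of all genes (26.3% and 28.0% in total RNA, 14.1% and 15.7% in RPF). Those that fell in both were Tnfrsf26 (-1.42 and -0.94) and Tnfrsf1a (-0.55 and -0.44), the first TNF receptor, which has a death domain. Fas (0.43 and 0.46) and the TRAIL receptor Tnfrsf10b (0.88 and 0.62), both death receptors, rose in both, and so did Tnfrsf13c (2.16 and 2.79), whose groups overlapped and which followed the B cell markers described later. Of 14 other ligands 7 were tested in total RNA, and 5 rose (Tnfsf4, Lta, Tnfsf9, Tnf and Tnfsf10) and none fell, with a median of 0.53. In RPF 8 were tested, of which Tnfsf4, Tnfsf9 and Lta rose and none fell (edgeR), while Cd70 entered through Rnmt cKO alone and is not counted as a rise. No ligand fell at an unadjusted p under 0.05 in either kind, beside 30.8% of all genes in total RNA and 21.4% in RPF. No gene of either list passed in TE, where 15 receptors and 7 ligands were tested (edgeR). Over all genes tested in TE, 3.24% rose and 6.57% fell. At an unadjusted p under 0.05, Tnfrsf14, Tnfrsf26 and Tnfsf4 were higher in TE, beside 11.9% of all genes, and Tnf was lower, beside 12.7%. Tnfsf12 and Tnfsf13 were listed at 0 in all libraries, and both overlap the read-through gene Tnfsfm13 on the same strand, where reads shared between genes are not counted.

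Downstream of the receptors, all 32 genes of the list of TRAF adaptors and proximal signalling proteins were tested. In total RNA 12 rose and 10 fell, beside 26.3% and 28.0% of all genes, with a median log2 fold change of 0.067. In RPF 8 rose and 5 fell, beside 14.1% and 15.7%, with a median of 0.10. Tnfaip3, which encodes A20, the deubiquitinase that shuts off NF-κB signalling, went from 31.1, 31.7 and 54.2 CPM in control total RNA to 133, 148 and 129 CPM in Rnmt cKO. That was the largest rise of the list (log2 fold change 1.81 ± 0.20, edgeR, adjusted p = 2.14e-04). Traf5, an adaptor of OX40 and CD27 among others, went from 24.8, 26.7 and 28.5 CPM to 10.1, 10.6 and 8.71 CPM and fell most (-1.45 ± 0.10, edgeR, adjusted p = 3.14e-05). Neither pair of groups overlapped. Traf6 (1.12), Traf4 (1.05) and Otulin (0.81) rose and Tab1 (-0.95), a subunit of the TAK1 kinase complex, fell in total RNA, all with the same call in RPF. Traf1 and Traf2, the adaptors that most of these receptors share, rose by 0.28 ± 0.08 and 0.26 ± 0.09 on the log2 scale (edgeR, adjusted p = 0.0147 and 0.0348). Traf3 alone of the 32 rose in TE, beside 3.24% of all genes, and none fell, beside 6.57%. Its TE change was 0.55 (edgeR, adjusted p = 0.0453), with a fall in total RNA (-0.25) and an RPF value of 0.30 ± 0.17.

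**Figure D5:**
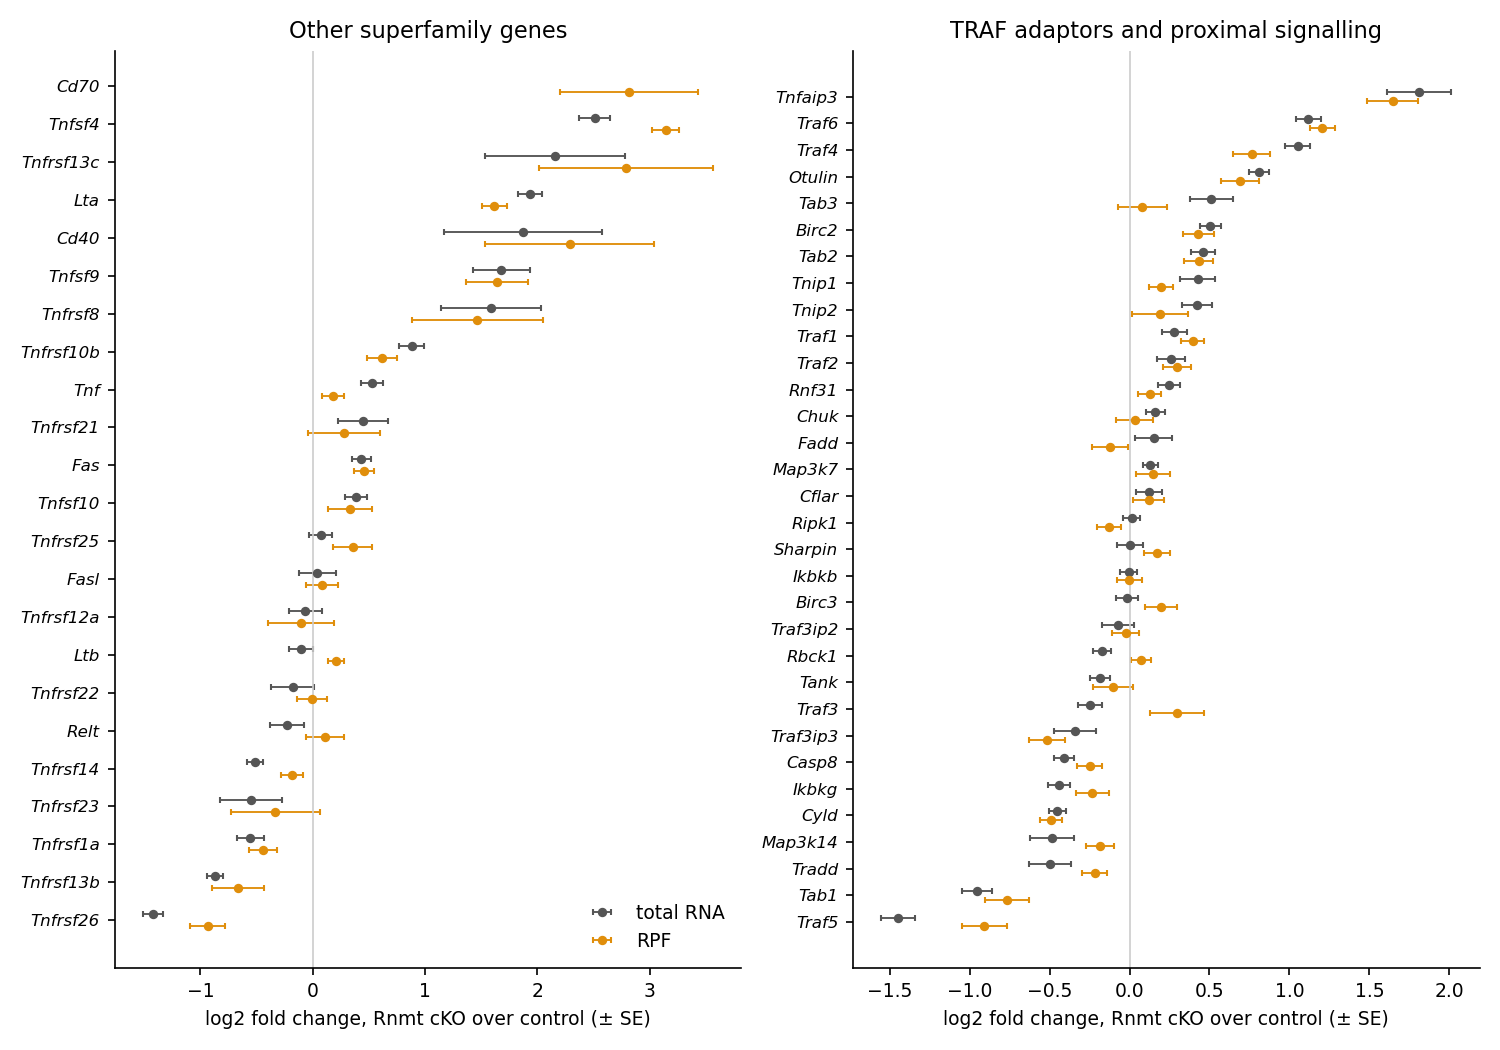
Log2 fold change of Rnmt cKO over control, with SE bars from edgeR fits to 3 libraries per group, in total RNA (grey) and RPF (orange) for the other superfamily receptors and ligands past the CPM filter (left) and the 32 TRAF adaptors and proximal signalling genes (right), ordered by total RNA; Cd70 was tested in RPF alone. Tnfsf4 stands near the top at 2.51 and 3.14, and Traf5 at the bottom at -1.45 and -0.91.

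The labelled cell type was checked with marker genes. All 8 CD4 T cell markers were expressed, with a summed level of 3390, 3294 and 3151 CPM in control total RNA and 2535, 2501 and 2835 CPM in Rnmt cKO, and Cd28 was the most abundant at 1094 CPM in control. Of these, Cd3g, Cd3d, Cd5 and Trac fell in both kinds of library (28.0% of all genes fell in total RNA and 15.7% in RPF) and Cd2 rose in total RNA (26.3% of all genes), while Cd4 itself was at -0.16 (edgeR, adjusted p = 0.102). Of 7 activation markers Cd44, Nr4a1, Cd69 and Il2ra rose in both kinds, beside 26.3% of all genes in total RNA and 14.1% in RPF, and none fell, beside 28.0% and 15.7% (edgeR; at an unadjusted p under 0.05 none was lower in total RNA and 1 in RPF). Regulatory T cells carry several of these receptors at high levels. Of their 6 markers, 4 were tested in total RNA, and Ikzf2, Lrrc32 and Nrp1 rose, beside 26.3% of all genes. All 6 markers together, of which Gpr83 was the most abundant in control, had a summed level of 31.9, 33.9 and 35.8 CPM in control and 49.4, 51.4 and 46.5 CPM in Rnmt cKO. In RPF all 6 were tested, Ikzf2 and Nrp1 rose, beside 14.1% of all genes, and Lrrc32 was at 0.74 ± 0.31 (edgeR, adjusted p = 0.109). Their defining gene Foxp3 was below 1 CPM in all total RNA libraries and at 6.002 ± 0.759 and 5.30 ± 0.918 CPM in RPF (log2 fold change -0.19 ± 0.23, edgeR, adjusted p = 0.562).

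Markers of other cells were not equal between libraries. The 8 B cell markers were led by Ighm (281 CPM in control total RNA), and without it the other 7 summed to 10.1, 6.55 and 36.7 CPM in control total RNA and 95.2, 116 and 20.6 CPM in Rnmt cKO. In RPF these 7 summed to 13.2, 8.57 and 43.9 CPM in control and 142.5, 156 and 25.3 CPM in Rnmt cKO. None was at 0 in all libraries. In total RNA 3 of 7 tested rose (Cd22, Ms4a1 and Cd79b), beside 26.3% of all genes, and Ighm fell, beside 28.0%, and the groups of 5 of the 7 overlapped. In RPF 4 of 8 rose (these 3 and Ebf1, which was above 1 CPM in 1 control library), beside 14.1%, and none fell, beside 15.7% (edgeR; none was lower at an unadjusted p under 0.05), and the groups of 6 of the 8 overlapped. Rnmt cKO replicates 1 and 2 thus had more of these 7 genes than the other total RNA libraries, whereas Rnmt cKO replicate 3 lay below control replicate 3. Among the superfamily receptors known from B cells, Tnfrsf13c and Cd40 moved with them, while Tnfrsf13b fell in total RNA (-0.87). Tnfrsf13c, the BAFF receptor, was at 12.7, 10.9 and 3.32 CPM in Rnmt cKO total RNA, and Cd40 at 11.7, 13.8 and 3.15 CPM. Control replicate 3 exceeded Rnmt cKO replicate 3 in both, at 3.55 and 5.43 CPM. The 5 members that rose and the 2 that fell were outside the control range in each Rnmt cKO replicate. Of all genes tested, 30.0% lay above all controls and 32.3% below in total RNA, and 22.2% and 24.3% in RPF. The 2 CD8 markers summed to 21.4, 21.3 and 41.6 CPM in control total RNA and 26.4, 21.3 and 9.83 CPM in Rnmt cKO, with Cd8a the most abundant and neither called. The 5 NK cell markers, led by Klre1, summed to 0.424, 0.317 and 0.269 CPM in control total RNA and 2.03, 2.01 and 1.16 CPM in Rnmt cKO. The 11 myeloid and dendritic cell markers, led by Flt3, summed to 0.159, 0.528 and 0.484 CPM in control total RNA and 1.69, 0.669 and 0.647 CPM in Rnmt cKO. Both sums were higher in every Rnmt cKO total RNA library than in every control, and no gene of either list passed the filter or was at 0 in all libraries. The part of other cells in the values of the members was not tested.

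For each member the genes with the most similar profile were sought among 7264 genes, by Pearson's r of log2 CPM centred within each kind of library over the 12 libraries, which share cultures and the split into genotypes. This is a description and no p is given. Cd27 was nearest to Lck (r = 0.994) and Gimap1 (0.993), Cd40lg to Cap1 (0.982) and Dock11 (0.978), and these 4 genes also had negative log2 fold changes. Tnfsf11 was nearest to Sesn2 (0.996) and Rras2 (0.995), and Tnfsf8 to Il21r (0.990) and again Sesn2 (0.986). Tnfrsf4 was nearest to Imp3 (0.983) and Traf4 (0.980), Tnfrsf9 to Tspan3 (0.986) and Gpr107 (0.985), and Tnfrsf18 to Ppp1r12c (0.986) and Pibf1 (0.983). The 2 members that did not pass the test had the lowest nearest values, with Ss18l2 (0.909) and Ppcdc (0.892) for Tnfrsf1b and Rad51d (0.943) and Wdr82 (0.940) for Tnfsf14.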

How the data were processed

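Libraries of total cytoplasmic RNA and RPF were made with the Illumina TruSeq Ribo Profile (mammalian) kit. Per the methods of the study, the authors used read 2 since the other read of the pair could not be used, trimmed adapters (Cutadapt), discarded rRNA and tRNA reads (Bowtie) and aligned to mm10 (GRCm38) with the GENCODE vM12 basic annotation in STAR 2.5.2b. The submitters' processing notes also name FastQC and edgeR. The authors deposited counts of uniquely aligned reads per gene and strand for each library, which were used as deposited, without normalization. The rows that name no gene (unmapped, multimapping, unassigned and ambiguous reads) made up 41.1% to 70.4% of a file and were left out. A table deposited by the authors holds a signal per library, equal to the reverse-strand counts divided by an effective library size, and log2 fold changes and p-values of their own comparisons. Its signal served to identify the strand and its comparisons were not used.

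Counts of the reverse strand were analysed with edgeR 4.0.16 in R 4.3.3. A gene was tested where 3 or more of 6 libraries exceeded 1 CPM (in both kinds for TE), with TMM within each kind, glmQLFit and glmQLFTest, and SE was the absolute log2 fold change divided by the square root of F. The scripts were tested on simulated data. Symbols came from the deposited table or, for genes it lacks, from a list of gene names by Ensembl ID. Positions and exon lengths came from GENCODE vM21, which held 49326 of the 49585 gene IDs. Upstream sequences came from RefSeq on GRCm38.p6, which had windows for 8 of the 9 members; Cd40lg was not matched. Motif positions were searched on both strands in the 250 bases before the start.

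All 9 members and Rnmt are named, every gene of each list is counted, up to 6 called genes are named per marker or signalling list, any other superfamily gene past the filter may be named, and the 2 genes most like each member are named, among genes averaging 4 or more on the log2 CPM scale. Named outside this rule, after their values were seen, are Traf1, Traf2, Traf3, Cd4, Foxp3, the most abundant gene of a list, and the superfamily genes under the filter. The members, lists and tests were chosen with earlier results of these data known.

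Same-numbered libraries of the 2 genotypes did not deviate together (r of -0.286, -0.222 and -0.524 in total RNA and 0.145, -0.0525 and -0.0659 in RPF), so genotypes share only a number. Same-numbered total RNA and RPF libraries of a genotype did (r of 0.160, 0.200 and 0.378 in control and 0.113, 0.365 and 0.290 in Rnmt cKO). These numbers were therefore taken to pair libraries of a culture, which the labels do not state. No 2 replicates were alike within sampling noise (chi-square per degree of freedom 4.62 to 39.3). Alternatives were no TMM, DESeq2 1.42.0, the edgeR exact test, other filters, counts of both strands, each replicate left out and replicate blocks. PCR duplicates were not marked by molecular identifiers, so counting limits cover counting error only.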

Additional observations from a re-analysis of the deposited data

Results flagged for a closer look

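Cd40lg was singled out because its genotype effect differed between the kinds of library by the interaction test, with a log2 fold change 0.78 lower in RPF than in total RNA (-0.7778, edgeR, adjusted p = 0.0170). The ratio of RPF to total RNA was lower in 3 of 3 Rnmt cKO cultures than in any control culture. Over the 14 alternatives the difference stayed between -0.84 and -0.69, and its adjusted p between 0.00179 and 0.0754. Cd40lg total RNA rested on 259 to 681 counts per library. No explanation was tested.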

How the results depend on the processing

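Of 359 values of members under the alternatives, 343 kept their sign and their side of the threshold. In total RNA and in RPF the counts of 5 members up and 2 down held under every alternative run except that Tnfsf14 was added in total RNA without Rnmt cKO replicate 2, so that the count up ran from 5 to 6. In TE no member rose under any alternative, and the count of members down ran from 0 to 1 when single cultures were left out, with Cd40lg missing the threshold without control replicate 1, control replicate 2 or Rnmt cKO replicate 1. Signs that turned belonged to values that had not passed. When single replicates were left out, Tnfrsf1b ran from -0.0276 to 0.125 in total RNA, from -0.0079 to 0.185 in RPF and from -0.0445 to 0.0860 in TE, Tnfrsf18 ran from -0.0423 to 0.142 in TE, and Tnfrsf9 ran from -0.0704 to 0.0758 in TE. Tnfrsf9 also turned in TE with no filter (0.0069), under the replicate block (0.0106) and under a block that joins the total RNA and RPF library of a number (0.0111). The cause was not tested. The block that joins the total RNA and RPF library of a number, which is the pairing the correlations bear out, gave 426 genes up and 777 down in TE, beside 346 and 701 without it. A block by replicate number across genotypes, which share only a number, gave 190 and 456, and leaving out single cultures gave as few as 125 and 415; no filter gave 214 up. Neither block changed a call of a member. Depth limits Tnfsf14, with as few as 35 reads in an RPF library, and Rnmt cKO replicate 3, the shallowest RPF library.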
